A study of Anopheles gambiae with 15 samples.

Results

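Transcript levels in the hindgut of Anopheles gambiae, a malaria mosquito, were measured at the 4th larval instar. The hindgut was dissected together with the Malpighian tubules and compared with whole larvae of that instar. The 2 groups were taken by their labels and held 3 arrays each, 6 of the 15 arrays of the series. The remaining 9 arrays came from gastric caeca, anterior midgut and posterior midgut. All larvae were of the G3 strain and ate yeast and ground fish food. No treatment separates the groups. Each hindgut array held RNA pooled from 1000 dissected guts and each whole-larva array held RNA pooled from 200 individuals, and the labels call the arrays biological repeats. A pool hides the spread between single larvae. The whole larvae still contained their hindgut and tubules, so the comparison sets a tissue against a mixture that includes it. Its question, as the design text puts it, is which transcripts are enriched in a gut section relative to the whole animal.

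The hindgut of a mosquito larva includes the ileum and the rectum. Ions are taken back from the fluid that passes through it, which helps set the salt content of the haemolymph. The Malpighian tubules open at the front of the hindgut. They are the excretory organs of insects: a proton pump, the V-type ATPase, energises ion transport into the tubule, water follows, and the resulting fluid carries wastes and foreign compounds out of the body. The sample joined both organs, and a transcript measured in it may come from either. In RNA from whole tissue, fewer cells of a type and less RNA per cell cannot be told apart.

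Of the 22761 probe sets in the table, the 16884 whose ID starts with Ag were tested. A probe set is a group of short oligonucleotides whose signals are summarised as 1 level, and some sets are shared by more than 1 transcript. That level is given here as the deposited log2 value, on which a difference of 1 is a 2-fold change. These IDs are not paired with genes in the files or tables used here, so no gene name, marker gene or pathway could be assigned and the labelled tissue could not be checked against its markers. For that reason only 2 IDs that were higher and 2 that were lower are printed, and the other probe sets are described by counts and ranges.

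Hindgut arrays were close to each other and whole-larva arrays less so. Across the tested probe sets, which are not independent replicates, pairs of hindgut arrays correlated at r = 0.981 to 0.987 and pairs of whole-larva arrays at 0.927 to 0.947, while a hindgut array and a whole-larva array correlated at 0.845 to 0.888. The spread within a group, as a root mean square SD, was 0.237 log2 units in hindgut and 0.442 in whole larvae. Of the 100 brightest probe sets, pairs of hindgut arrays shared 89 to 91, pairs of whole-larva arrays 79 to 86, and pairs across the groups 70 to 76. With 3 arrays a group the precision of these values is limited: the median 95% interval of a difference reached 0.40 log2 units to each side.

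In the hindgut sample 1230 probe sets, 7.29% of those tested, were higher than in whole larvae, and 683 probe sets, or 4.05%, were lower. A probe set was called when limma's p after Benjamini-Hochberg adjustment over all tested probe sets was under 0.05 and the difference was at least 2-fold. Median changes were 2.98-fold for higher and 3.55-fold for lower probe sets. The lower set thus held fewer members, but more of them at the extreme: 22 probe sets fell at least 32-fold and 4 rose at least 32-fold, where low levels near background make a fold inexact. An 8-fold change was reached by 117 probe sets upwards and 103 downwards. Most of the higher probe sets, 843, changed between 2- and 4-fold, as did 390 of the lower ones. The 3 hindgut arrays did not overlap the 3 whole-larva arrays in 19.2% of the tested probe sets with hindgut above and in 20.1% with hindgut below. Among the calls, which were chosen on these arrays, 1215 of 1230 and 636 of 683 did not overlap. The size of the surplus of higher over lower calls depended on the scaling. Quantile normalization of the deposited values gave 879 higher and 721 lower. Centring each array on its median gave 1363 and 597. The SD of levels over probe sets was 1.81 to 1.85 on the hindgut arrays and 1.68 to 1.76 on the whole-larva arrays. The median level was 5.01 to 5.05 and 5.09 to 5.14.

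**Figure D1:**
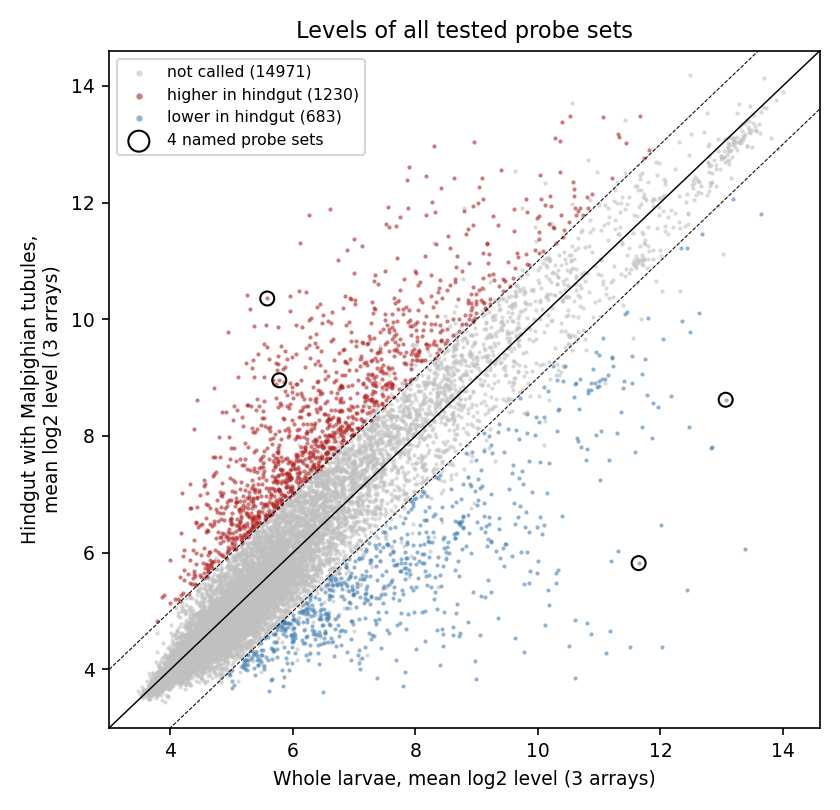
Mean log2 level in the hindgut sample (vertical axis) against that in whole larvae (horizontal axis), 3 arrays each, with 1 point for each of the 16884 tested probe sets. Red points are the 1230 called higher in hindgut, blue points the 683 called lower and grey points the rest. The solid line marks equal levels, the dashed lines a 2-fold difference, and the 4 open circles the named probe sets.

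For 11546 of the tested probe sets, 68.4%, the 95% interval of the difference lay wholly within 2-fold either way. These include all 919 with a mean level under 4 over the 6 arrays and 6472 of the 6910 between 4 and 5. Such levels are near background, where a 2-fold difference may not show. The share was 69.5% between 5 and 6 and 29.5% between 6 and 8. It was 13.0% between 8 and 10, 20.3% between 10 and 12 and 75.2% at 12 or more. The adjusted p was passed by 1625 probe sets with a difference under 2-fold, which may overlap with the 11546. The threshold that the study's design text states, an unadjusted test per probe set with a 2-fold minimum, gave 1251 higher and 541 lower probe sets when run on the 6 arrays with the methods' own test.

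The 4 IDs printed have the smallest p in each direction among called probe sets whose 3 hindgut arrays did not overlap the 3 whole-larva arrays. Groups that lie apart with little spread therefore follow from this choice. Both group means also had to lie above a background level. That background, the 95th percentile of the 290 probe sets whose ID starts with a number, lay at 5.31 in hindgut and 5.29 in whole larvae. Ag.2R.1609.1_CDS_s_at stood at 9.01, 8.99 and 8.87 on the 3 hindgut arrays and at 5.74, 5.79 and 5.80 on the 3 whole-larva arrays. The 2 groups were far apart and each varied little, which the choice of IDs favours. The difference was 9.05-fold with a 95% interval of 7.30 to 11.2 (limma, adjusted p = 2.6e-08). By the maker's naming convention, probes of a set ending in _s_at are shared by more than 1 transcript, so the source of this signal is uncertain.

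Ag.3R.2090.0_CDS_at stood at 10.25, 10.22 and 10.60 in hindgut and at 5.44, 5.77 and 5.54 in whole larvae. By the same choice all hindgut arrays lay above all whole-larva arrays, which were close to background. The difference was 27.4-fold with a 95% interval of 19.5 to 38.5 (limma, adjusted p = 3.51e-08). Both of these probe sets were also low in the other gut sections. In caeca, anterior midgut and posterior midgut the first averaged 5.68, 5.57 and 5.96, and the second 4.71, 5.23 and 5.41. The first exceeded caeca by 9.70-fold and posterior midgut by 7.98-fold in hindgut (limma, adjusted p = 7.29e-09 and 4.68e-08). Its anterior midgut mean lay below that group's background of 5.83, which hindgut exceeded by 8.73-fold, so that fold is at least this large (adjusted p = 1.12e-08). The second lay below background in all 3 sections, and hindgut exceeded them by at least 31.95-, 23.07- and 27.81-fold, taken over the background of each (highest adjusted p = 4.17e-08).

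The 2 lower IDs showed the opposite arrangement, in which whole larvae stood apart from every gut section. Ag.2R.1003.0_CDS_at was at 6.22, 5.63 and 5.62 in hindgut and at 12.01, 11.51 and 11.42 in whole larvae, a 56.5-fold fall with a 95% interval of 38.0 to 84.0 (limma, adjusted p = 2.6e-08). Its hindgut mean of 5.82 lay near the background of 5.31, so this fold is inexact. Its means in caeca, anterior midgut and posterior midgut were 5.52, 5.45 and 5.08, and hindgut did not pass the test against any of them (limma, adjusted p = 0.515, 0.271 and 0.0632). The anterior and posterior midgut means lay below the backgrounds of those groups, 5.83 and 5.56, so these tests could hardly show a difference. Ag.UNKN.848.0_CDS_s_at was at 8.56, 8.36 and 8.95 in hindgut and at 12.97, 13.28 and 12.94 in whole larvae, a 21.8-fold fall with a 95% interval of 15.7 to 30.1 (limma, adjusted p = 4.28e-08). Unlike the former, it kept a clear signal in all gut sections, with 8.58 in caeca and 8.34 in anterior midgut. Posterior midgut was lowest at 7.57, and hindgut exceeded it by 2.07-fold (adjusted p = 0.00383). This ID also ends in _s_at, with the same uncertainty.

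**Figure D2:**
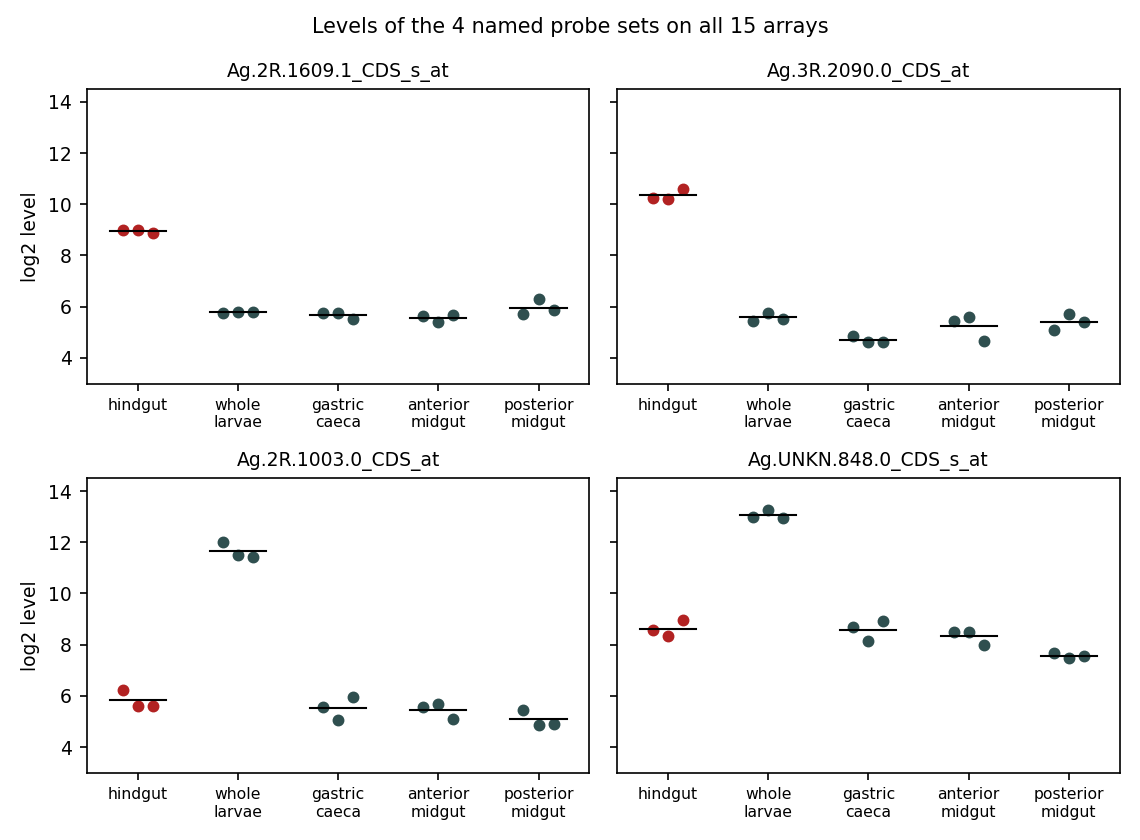
Log2 level (vertical axis) of the 4 named probe sets in the 5 groups, with 1 point for each of the 15 arrays and a line at the mean of 3. Both upper panels show hindgut alone at a high level (means 8.95 and 10.36), and both lower panels show whole larvae alone at a high level (11.64 and 13.06).

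Calls were concentrated in probe sets of middle and high level. Taken by the mean over the 6 arrays, 26.7% of the 1127 probe sets between 8 and 10 were higher in hindgut and 8.61% were lower. Between 6 and 8, 19.1% of 3297 were higher and 9.61% lower, and between 10 and 12, 78 of 390 were higher and 8.46% lower. Among the 6910 probe sets between 4 and 5, 0.304% were higher and 0.738% lower. RMA can draw values this close to the floor together and so understate their folds, which was not tested here. The 157 brightest probe sets, at 12 or more, also held few calls, 8 higher and 3 lower. For 75.2% of these the 95% interval lay within 2-fold, against 13.0% of those between 8 and 10. The median difference over all probe sets of a class was 0.49 log2 units between 8 and 10 and 0.32 between 6 and 8. After quantile normalization of the deposited values these medians were 0.16 and 0.07, and the class between 6 and 8 held 400 higher and 345 lower probe sets, in place of 630 and 317. Centring each array on its median moved them the other way, to medians of 0.58 and 0.41 and to 691 higher and 288 lower. The size of the surplus of higher calls at middle levels thus changed with the scaling.

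**Figure D3:**
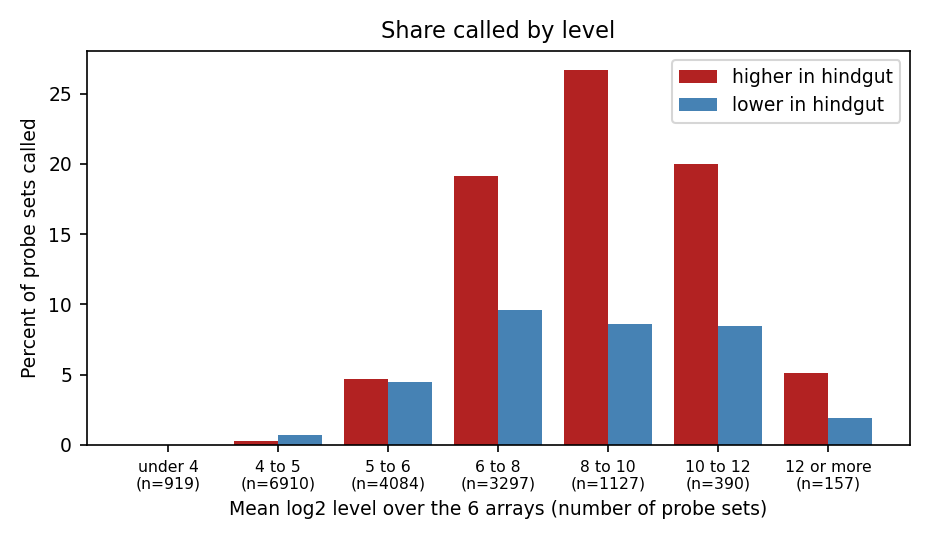
Percent of probe sets called higher (red) or lower (blue) in hindgut than in whole larvae, by the mean log2 level over the 6 arrays, with the number of probe sets of each class under the axis. Higher calls peak at 26.7% between 8 and 10, and both kinds are rare under 5 and at 12 or more.

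Abundant transcripts of the hindgut sample were in the main also abundant in whole larvae. A mean level of at least 10 was reached by 655 probe sets in hindgut and by 557 in whole larvae, and 424 reached it in both. Of the 655, 199 were called higher in hindgut and 57 had a whole-larva mean under 8. Of the 557, 102 were called lower in hindgut and 40 had a hindgut mean under 8. Choosing probe sets by their level in a group favours calls towards that group, so these counts are descriptions. The 100 brightest probe sets carried 25.08%, 25.02% and 24.96% of the summed linear signal on the hindgut arrays and 30.03%, 26.01% and 29.04% on the whole-larva arrays. All 3 hindgut arrays lay below all 3 whole-larva arrays (two-sided exact permutation p = 0.1, n = 3 per group, the least that 3 against 3 arrays can give). For the 10 brightest the groups overlapped, at 3.80% to 3.93% in hindgut and 3.86% to 4.25% in whole larvae (exact permutation p = 0.2, n = 3 per group). The number of probe sets above a lower background, the 95th percentile of the 4506 with Pf in the ID, was 15356, 15387 and 15566 on the hindgut arrays and 16214, 16082 and 15728 on the whole-larva arrays, lower on every hindgut array (exact permutation p = 0.1, n = 3 per group). Against the higher background of the number IDs the counts overlapped, with means of 7215 and 7686 (exact permutation p = 0.4, n = 3 per group).

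Differences in level alone and differences across the background were counted separately, with the same background taken on each array on its own. At this level, 5.17 to 5.44 on these 6 arrays, 5399 probe sets were above it on all 6 and 7238 on none. The former included 856 of the 1230 higher calls and 313 of the 683 lower calls. Above background on all 3 hindgut arrays and on no whole-larva array were 235 probe sets, of which 134 were called higher. Their mean hindgut levels reached 8.83, with a median of 5.91. The reverse class, above background on all 3 whole-larva arrays and on no hindgut array, held 341 probe sets, of which 169 were called lower. Its mean levels in whole larvae reached 12.02. By the lower background of the 4506 Pf probe sets, the counts were 4 and 122. By the first background, 124 of the 235 and 104 of the 341 were above it on no array of another gut section. The same held for 85 of the 5399, 6911 of the 7238 and 1526 of the 3671 remaining probe sets. Taken on group means, this background was higher in anterior midgut (5.83) than in hindgut (5.31), so these counts are descriptions. Because the level of background is not known for single probe sets, folds are uncertain for the 249 higher calls whose whole-larva mean and the 304 lower calls whose hindgut mean lay below the first background.

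The calls rested on the whole-larva pools to differing degrees. Whole-larva arrays had an SD over 1 log2 unit for 164 of the 683 lower probe sets, 24.0%, and for 38 of the 1230 higher ones, 3.09%, against 3.37% of all tested probe sets. In hindgut the SD passed 1 for 23 of the lower and 4 of the higher probe sets. Leaving out each of the 6 arrays in turn, 885 of the higher calls (72.0%) and 435 of the lower calls (63.7%) passed in all 6 fits. Of the lower probe sets with a whole-larva SD over 1, 79 of 164 did so. Large changes held more often, since all 31 probe sets at least 16-fold higher and 42 of the 43 at least 16-fold lower passed in all 6 fits, against 508 of the 843 higher ones between 2- and 4-fold. No called probe set changed direction in any of these fits. The folds and the fits used the same arrays, so both of these outcomes were nearly fixed in advance.

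Many of the probe sets higher than in whole larvae were also higher in hindgut than in the other gut sections. All contrasts of hindgut use the same 3 hindgut arrays, and all contrasts with whole larvae the same 3 whole-larva arrays, so the values are given side by side. The 1230 were chosen on these same arrays, which raises their counts and shares above the sections. It also raises the differences of sections from whole larvae. Hindgut exceeded caeca for 634 of the 1230 higher probe sets, anterior midgut for 963 and posterior midgut for 723. Over all tested probe sets it did so for 5.80%, 11.9% and 7.54%. The anterior midgut arrays were uneven, with r = 0.871 to 0.963 between them. Their counts of probe sets above the background of the number IDs were 4567, 2150 and 6516. Without anterior midgut array 1, 2 or 3, hindgut exceeded that section for 1950, 1635 and 2544 of all tested probe sets, against 2017 with all 3. All 3 sections were exceeded by 548 of the 1230 probe sets, 44.6%, and none by 213, 17.3%. Among all tested probe sets, 814 or 4.82% exceeded all 3. Of the 31 probe sets at least 16-fold above whole larvae, all 31 exceeded all 3 sections, as did 278 of the 843 between 2- and 4-fold. The median difference over the 1230 probe sets was 1.57 log2 units for hindgut minus whole larvae, and 0.46, -0.09 and 0.36 for caeca, anterior midgut and posterior midgut minus whole larvae.

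Of the 683 probe sets lower than in whole larvae, hindgut was below caeca for 143, below anterior midgut for 94 and below posterior midgut for 84, where all tested probe sets gave 2.68%, 3.16% and 2.45%. It was below none of the 3 sections for 515, 75.4%, and below all 3 for 52, 7.61%. Among all tested probe sets these shares were 94.5% and 0.788%. The 683 were chosen on these same arrays, which raises their shares below the sections and lowers the differences of sections from whole larvae. All 3 sections were exceeded by 31 of the 683, 4.54%, close to the 4.82% of all tested probe sets. The median difference over the 683 was -1.83 log2 units for hindgut minus whole larvae, and -1.25, -1.84 and -1.84 for caeca, anterior midgut and posterior midgut minus whole larvae. Over all tested probe sets these 4 medians were -0.05, 0.01, 0.06 and 0.04. After quantile normalization 356 of 879 higher probe sets exceeded all 3 sections, 40.5%, and 73 of 721 lower ones were below all 3. The split of calls between hindgut and each section moved further, from 68.4% to 57.6% higher against caeca, from 79.1% to 52.6% against anterior midgut and from 75.5% to 59.1% against posterior midgut.

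**Figure D4:**
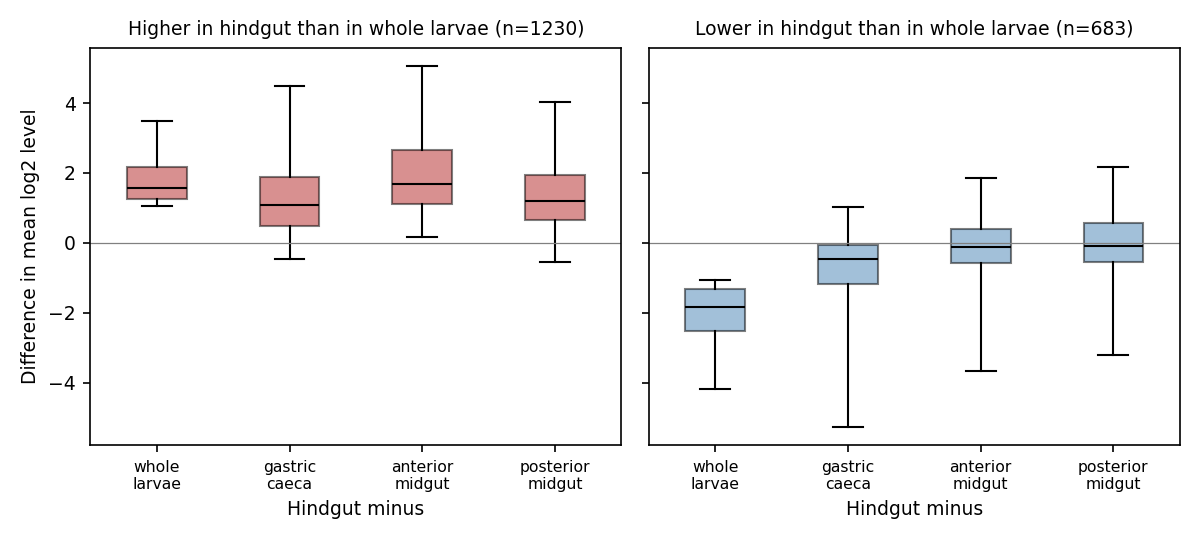
Difference in mean log2 level of hindgut minus whole larvae and minus each other gut section (vertical axis) for the 1230 probe sets higher (left) and the 683 lower (right) in hindgut than in whole larvae. Boxes span the quartiles with a line at the median, and whiskers run from the 5th to the 95th percentile over probe sets. Differences from the sections stay mostly above 0 on the left (medians 1.10, 1.67 and 1.20) and centre near 0 on the right (-0.47, -0.12 and -0.09).

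A measure of bias along transcripts moved with the group. In control probe sets for actin and Gapdh, the level at the 3' end minus that at the 5' end was 0.21, 0.26 and -0.22 on the hindgut arrays and 0.78, 1.08 and 0.93 on the whole-larva arrays (two-sided exact permutation p = 0.1, n = 3 per group, the least that 3 against 3 arrays can give). The groups did not overlap, and the arrays of the other sections, at 0.63 to 1.12, lay with the whole larvae. Some IDs share a stem, the part before CDS or UTR, and 671 stems had probe sets of both kinds. No source used here defines these fields. The mean CDS minus UTR level over these stems was 0.035, 0.0036 and 0.15 on the hindgut arrays and -0.27, -0.54 and -0.24 on the whole-larva arrays, again without overlap (exact permutation p = 0.1, n = 3 per group). It was -0.18 to -0.07 on the caeca and posterior midgut arrays, and -0.11, 0.43 and -0.09 on the anterior midgut arrays.

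The same values, taken per stem as the difference of hindgut and whole larvae, were larger for the CDS than for the UTR probe sets in 528 of the 671 stems, with medians of 0.20 and -0.09 log2 units. No stem had opposite calls: both probe sets were higher in 44 stems and both lower in 24. A CDS call alone was higher in 75 and lower in 8, and a UTR call alone was higher in 5 and lower in 31. Over all tested probe sets, 7.46% of the 14060 with CDS in the ID were higher and 3.66% lower, while 6.96% of the 790 with UTR were higher and 9.24% lower. Of the 4 named probe sets, all 4 have CDS in the ID. The part of this bias in the calls was not tested.

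**Figure D5:**
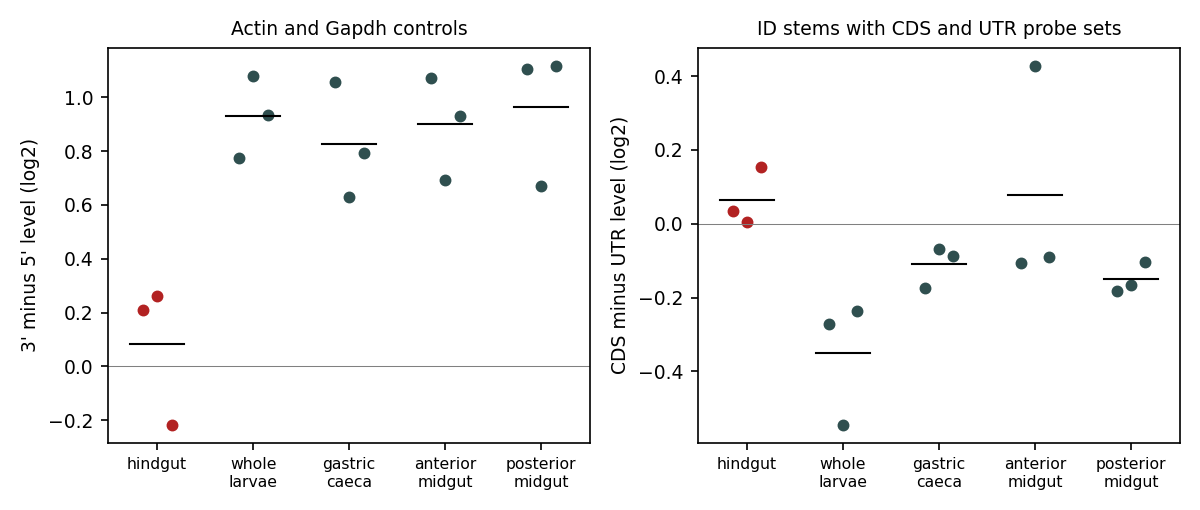
Left, the level at the 3' end minus that at the 5' end for actin and Gapdh controls (mean of both, log2), and right, the mean CDS minus UTR level over 671 ID stems (log2), with 1 point per array in each of the 5 groups and a line at the mean. Hindgut arrays are the lowest on the left (-0.22 to 0.26) and lie above all whole-larva arrays on the right; anterior midgut array 2 is highest there, at 0.43.

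The second field of the ID is written like the chromosome arms of this species, though no source used here states its meaning. Higher calls made up 8.46% of the probe sets with 3R in this field, 8.17% with 2L, 7.79% with 2R and 7.66% with 3L, but 5.63% with X and 3.35% with UNKN. The UNKN probe sets were dimmer, with a median level of 4.63 against 5.14 to 5.27 in the other classes. At levels of 8 or more the classes were closer, with 26.7% of 116 X, 24.4% of 86 UNKN and 20.2% to 25.4% of the other probe sets higher in hindgut. Between 5 and 8, X and UNKN had 7.17% and 7.38% higher, against 11.3% to 12.9% in the other classes. These shares are descriptions, and their differences were not tested.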

How the data were processed

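Levels are the deposited log2 values, which the authors made with RMA (background correction, normalization between arrays and a summary per probe set), as named in the submitters' processing notes. No version or setting of it is given in the sources used here, and the values themselves show the log2 scale. With limma 3.58.1 in R 4.3.3 (lmFit, eBayes, 2.76 prior degrees of freedom), 1 mean per group and a shared spread were fitted to the 15 arrays, on the 16884 probe sets whose ID starts with Ag, and the contrasts of hindgut with whole larvae and with each section were adjusted by Benjamini-Hochberg. Errors of differences are limma's. Single array measures were compared by exact permutation. The IDs printed have the smallest p among called probe sets with no overlap between the groups and both means above background. The members, rules and tests were chosen with earlier results of these data known. On simulated data over 16884 probe sets the fit called 82% of changes of 1.5 and 98% of changes of 2 upwards. Downwards it called 78% and 98%. There were 2 false calls. The fit shares its spread among the groups, but measured spreads were unequal, at 0.237 log2 units for hindgut and 0.442 for whole larvae. How the simulated rates change under unequal spread was not tested. They therefore give no error rate for the calls on the real arrays. Same-numbered hindgut and whole-larva arrays deviated together at r = 0.139, 0.040 and 0.093 and were not treated as pairs.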

Additional observations from a re-analysis of the deposited data

Results flagged for a closer look

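The change from whole larvae differed between hindgut and another gut section, by the contrast of the 2 sections in limma, for 3 of the 4 named probe sets. For Ag.2R.1609.1_CDS_s_at the change in hindgut exceeded that in caeca by 3.28 log2 units, that in anterior midgut by 3.38 and that in posterior midgut by 3.0. For Ag.3R.2090.0_CDS_at it exceeded them by 5.65, 5.12 and 4.95. The means of the second in all 3 sections, and of the first in anterior midgut, lay below background, so these 4 differences are not exact. For Ag.UNKN.848.0_CDS_s_at, lower in hindgut than in whole larvae, the change in posterior midgut was larger in size, with hindgut 1.05 log2 units above it. These probe sets were picked from the hindgut calls, which raises the first 6 values.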

How the results depend on the processing

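The named probe sets kept their direction and their call under all 19 alternatives that included them, at 7.01- to 9.65-fold for Ag.2R.1609.1_CDS_s_at, 24.5- to 29.2-fold for Ag.3R.2090.0_CDS_at, 49.8- to 64.8-fold for Ag.2R.1003.0_CDS_at and 19.9- to 28.2-fold for Ag.UNKN.848.0_CDS_s_at. They were chosen for the smallest p on these same arrays, so that outcome was nearly fixed in advance and says little about the other calls. Leaving out 1 array gave 1061 to 1290 higher and 568 to 796 lower probe sets against whole larvae. The counts moved most with stricter tests: limma's treat against a 2-fold change gave 356 higher and 179 lower, and the methods' t-test after Benjamini-Hochberg gave 695 and 206. Among UTR probe sets alone, an alternative added after seeing the data, 55 were higher and 72 lower of 790 tested. The other alternatives, including array weights, trended prior, the 2 groups alone and 2 filters on dim probe sets, stayed within 1.5 times. The added fits without anterior midgut and with CDS probe sets alone did so too. Within that range, quantile normalization gave 879 higher and 721 lower. The 2 groups alone, which borrow no spread from the other sections, gave 1208 higher and 507 lower. That fit kept 1152 of the 1230 higher and 484 of the 683 lower calls. Array weights were estimated gene by gene because the default method did not converge. A fit with the replicate block gave 1241 higher and 702 lower. Of the calls, 776 higher and 392 lower ones held in the 6 fits without 1 array and in 6 fits with other samples, scaling or variance settings. Against anterior midgut, quantile normalization gave 1255 higher and 1132 lower in place of 2017 and 534, and leaving out 1 array gave 1635 to 2544 higher and 426 to 926 lower, the highest without anterior midgut array 3. Against caeca the range without 1 array was 812 to 981 higher and 368 to 424 lower, and against posterior midgut 1053 to 1315 and 320 to 403. The 100 brightest probe sets took a smaller share of the signal in hindgut by 3.34 percentage points; with 10, 50 and 500 probe sets the mean difference had the same direction, and hindgut and whole-larva arrays overlapped with 10. Signal close to background limits folds of dim probe sets.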

Other observations

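Probe sets outside the tested ones gave almost no calls between hindgut and whole larvae. The same model, fitted to them alone and adjusted over them, called 0 of the 4506 Pf probe sets higher in hindgut and 1 lower, 0 of the 290 whose ID starts with a number, and 0 higher and 3 lower of the 937 whose ID starts with a sequence accession. The Pf probe sets were dim, with a 95th percentile of 4.00 in hindgut and 3.96 in whole larvae. The 919 tested probe sets with a mean level under 4 held 0 calls too. The lack of Pf calls therefore says little about false calls among brighter probe sets. At an unadjusted p under 0.05 in limma, with no minimum fold, 266 Pf probe sets were higher and 65 lower, 34 and 12 of those that start with a number, and 60 and 61 of those that start with an accession.

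Among the higher calls, whole-larva array 2 lay nearest to the hindgut mean for 588 probe sets, array 1 for 338 and array 3 for 304. Among the lower calls the 3 arrays were near to even, at 217, 240 and 226.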
